A study of Homo sapiens with 18 samples.

Results

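The genes described here are the 80 genes of human chromosome 9 whose start (the 5′ end on the gene's own strand) lies from 30000000 to 39999999 and whose level was above 1 CPM (the authors' unit for reads of a gene scaled to the reads counted in all genes) in at least 3 of 6 RNA-seq libraries. They are all 80 genes that the deposited table lists in this window, out of 13697 genes that passed the same filter and 14177 in the table. The window was chosen because earlier results of these data showed lower levels there in the UBR7 knockout libraries labelled KO1, so the change in that line chose the members and is given below as a description, without a test. The filter removed none of them. The gene nearest to it was FRMPD1, with 1.06 CPM in the third highest of its 6 libraries. Positions are those of the table and count from 1. They are not GRCh38 positions, since the table's furthest gene end on chromosome 1 (249214145) lies beyond that of RefSeq on GRCh38.p14 (248937099), and the submitters' processing notes name both hg19 and hg38.

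The series profiled HEK293T, a widely used cell line from human embryonic kidney, with and without a CRISPR-Cas9 knockout of UBR7 (UBR7KO). The series title names UBR7 as a chaperone of histone H3. RNA-seq covered 3 libraries of parental cells (P1, P2 and P3), 2 labelled UBR7KO1 (KO1-1 and KO1-2) and 1 labelled UBR7KO2 (KO2-1). ATAC-seq, which maps chromatin open to a transposase, covered 2 libraries of each genotype, and 1 ChIP-seq library was made for GFP in cells with GFP-tagged UBR7. The cells were grown in serum-containing medium with antibiotics, and no other treatment is given. A date code in the sample descriptions ties P1 to KO1-1 and P2 to KO1-2, and these are called the first and the second dated pair. P3 and KO2-1 carry no date and were set against each other as an undated pair. The labels do not say whether a line number stands for 1 clone or whether replicates are separate cultures, so any p-value measures the spread between these libraries, which may be technical.

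The short arm of chromosome 9 is dense with housekeeping genes in this region, and they share no single pathway. They include the AAA ATPase VCP, which extracts ubiquitinated proteins from complexes and membranes, splicing and RNA decay factors, enzymes of sugar and sialic acid synthesis, talin, a clathrin light chain and DNA repair proteins. Several of them are transcribed in opposite directions from start sites that lie close together, an arrangement known as a bidirectional promoter. Cell lines of the HEK293 family have an abnormal karyotype, and DNA copy number was not measured here.

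Each RNA library held between 22153291 and 29811908 reads in genes. UBR7 itself, on chromosome 14, stood at 55.0, 62.2 and 62.2 CPM in P1, P2 and P3, at 27.0 and 26.3 CPM in KO1-1 and KO1-2, and at 64.5 CPM in KO2-1. The UBR7KO and parental libraries differed by a log2 change of −0.72 (exact two-sided permutation test, p = 0.400, where 3 against 3 cannot go below 0.100). The level of KO2-1 was not reduced, so that sample is called the library labelled KO2 and every direction taken from it carries this limit. Protein was not measured in these samples, and the RNA level alone does not show whether UBR7 protein was lost. The HEK293T marker list (VIM, NEFL, NEFM, CDH2, PAX2 and GATA3) was found in full, with a summed level of 739 to 1055 CPM in parental and 770 to 1157 CPM in UBR7KO libraries. VIM was the highest of these, at 487 to 830 CPM, and weighs most in the sum. PAX2 was the lowest, at 0.721 to 1.92 CPM, and NEFM ranged from 27.7 to 211 CPM. Of the fibroblast list, 3 of 4 genes were in the table (DCN was not), with 14.2 to 21.3 CPM in parental and 7.35 to 15.0 CPM in UBR7KO libraries. None of the 3 blood markers (PTPRC, CD3E and HBB) or 3 keratinocyte and cervical epithelium markers (KRT5, KRT14 and TP63) was in the table. In a bulk sample, fewer cells of a type and less RNA per cell cannot be told apart.

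Promoters are shown for 2 abundant members that did not share the lower level in the first dated pair, DNAJA1 and VCP, because their departure from their neighbours is described below. The sequences are from RefSeq on build GRCh38.p14, 250 bases before to 50 bases after the start, with DNAJA1 at chr9:33025023-33025322 on the plus strand and VCP at chr9:35072576-35072875 on the minus strand. Capitals mark GAANNTTC or TTCNNGAA, the inverted repeats at the core of a heat shock element, which is bound by the heat shock factor HSF1. Each of them reads the same on both strands, and matches may overlap.
DNAJA1: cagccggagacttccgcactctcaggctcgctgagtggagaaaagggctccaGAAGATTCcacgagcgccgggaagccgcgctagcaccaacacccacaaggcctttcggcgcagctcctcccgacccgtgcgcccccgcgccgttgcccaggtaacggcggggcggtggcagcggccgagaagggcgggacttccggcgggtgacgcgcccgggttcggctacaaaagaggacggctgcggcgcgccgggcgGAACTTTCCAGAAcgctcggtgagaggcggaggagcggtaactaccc
VCP: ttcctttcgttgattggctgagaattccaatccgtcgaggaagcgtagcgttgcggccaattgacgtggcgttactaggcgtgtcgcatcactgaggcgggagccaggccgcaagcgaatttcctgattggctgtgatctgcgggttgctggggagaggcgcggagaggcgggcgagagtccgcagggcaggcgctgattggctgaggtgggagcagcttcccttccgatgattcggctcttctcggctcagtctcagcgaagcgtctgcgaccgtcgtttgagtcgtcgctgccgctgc
The DNAJA1 promoter held 3 matches, the last 2 of which overlap just after the start, and the VCP promoter held none. A promoter was listed for 63 of the 80 members, and 7 of these (11.1%) held the motif, against 3738 of 27305 promoters in the table (13.7%). The 7 were those of TOPORS, APTX, DNAJA1, CHMP5, ANKRD18B, FANCG and TRMT10B. Of these genes, all but DNAJA1 were lower in both dated pairs. The motif was chosen after the values of DNAJA1 were seen. A match is a run of letters and not a measured binding site, and its absence says only that these letters are not in this window. Median GC content was 67.3% in the member promoters and 58.3% in all promoters.

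Members as a group were lower in both dated pairs and not in the undated pair. The summed level of the 80 members was 3157 and 2921 CPM in P1 and P2, 2345 and 2035 CPM in KO1-1 and KO1-2, 3517 CPM in P3 and 3306 CPM in the library labelled KO2. The 2 KO1 libraries were thus the lowest of the 6, with 0.235% and 0.204% of reads in genes against 0.292% to 0.352% in the other 4. Against the mean of P1 and P2 on the log2(CPM + 1) scale, the members' median was −0.41 in KO1-1 and −0.61 in KO1-2, while it lay between −0.079 and 0.075 in each of the other 4 libraries. For all 13697 genes the same median lay between −0.151 and 0.095 in every library.

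**Figure D1:**
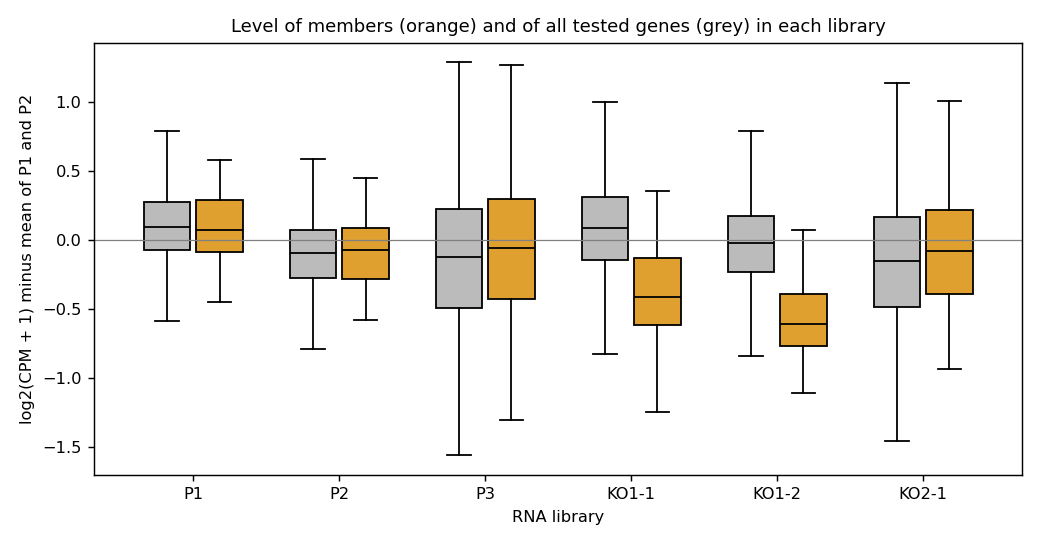
Level of the 80 members (orange) and of all 13697 tested genes (grey) in each RNA library, as log2(CPM + 1) minus the mean of P1 and P2. Boxes span the quartiles, lines mark medians and whiskers reach the furthest gene within 1.5 box lengths. The members' medians are −0.41 in KO1-1 and −0.61 in KO1-2, with the medians of all genes at 0.09 and −0.02.

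The median change of a member was −0.49 in the first dated pair (quartiles −0.69 and −0.31) and −0.50 in the second (quartiles −0.62 and −0.31). On the CPM scale the median member stood at 68.7% and 68.5% of the parental level of its date. In the undated pair the median change was 0.00 (quartiles −0.14 and 0.13), with 39 of 80 members lower. All tested genes had medians of −0.00, 0.07 and −0.02 in the 3 pairs, in the same order. All log2 changes here are on the log2(CPM + 1) scale unless stated. It understates the change of weakly expressed genes, most of all near or below 1 CPM.

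Of the 80 members, 72 (90.0%) were lower in both dated pairs, against 24.4% of all tested genes, and 1 was higher in both, against 36.6%. In 50 members (62.5%) both KO1 libraries lay below both dated parental libraries, against 9.01% of tested genes, and in 0 members both lay above, against 14.5%. The members were chosen from this same contrast, so these counts describe the choice. The limma fit of the 2 KO1 against the 2 dated parental libraries called 0 members and 0 of 13697 genes in either direction (0% called) at a Benjamini-Hochberg adjusted p under 0.05. At an unadjusted p under 0.05 it held 18 members, all lower, among 102 lower and 116 higher genes. The edgeR quasi-likelihood test on whole reads recovered from the CPM also called 0 genes, and DESeq2 called 4 higher (0.0292%) and 20 lower (0.146%) genes with no member among them.

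With the date code as a term of the same limma fit, 33 members were called lower and 0 higher, where 1.36% of tested genes were called lower (186 genes) and 2.23% higher (305 genes). These calls come from the contrast that chose the members, so for members they are a description and no test of the lower level. The TMM-scaled fit with the date code called 39 members lower, with 234 genes lower (1.71%) and 241 higher (1.76%), so the split between directions depended on the scaling while no member was called higher. On the recovered reads with the date code, edgeR's quasi-likelihood test called 39 members lower (1.91% of tested genes lower and 1.82% higher) and DESeq2 called 16 (0.723% lower and 0.526% higher). With a pseudocount of 0.1 and the date code limma called 33 (1.36% lower and 2.16% higher). The SE of a single member was smaller with the date code, as in ACO1 (0.20 without and 0.13 with it), and many members differed widely between P1 and P2. Every SE given for a member is from the empirical Bayes fit, which borrows from the spread of other genes. With 4 libraries it says little of the spread of that gene alone.

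**Figure D2:**
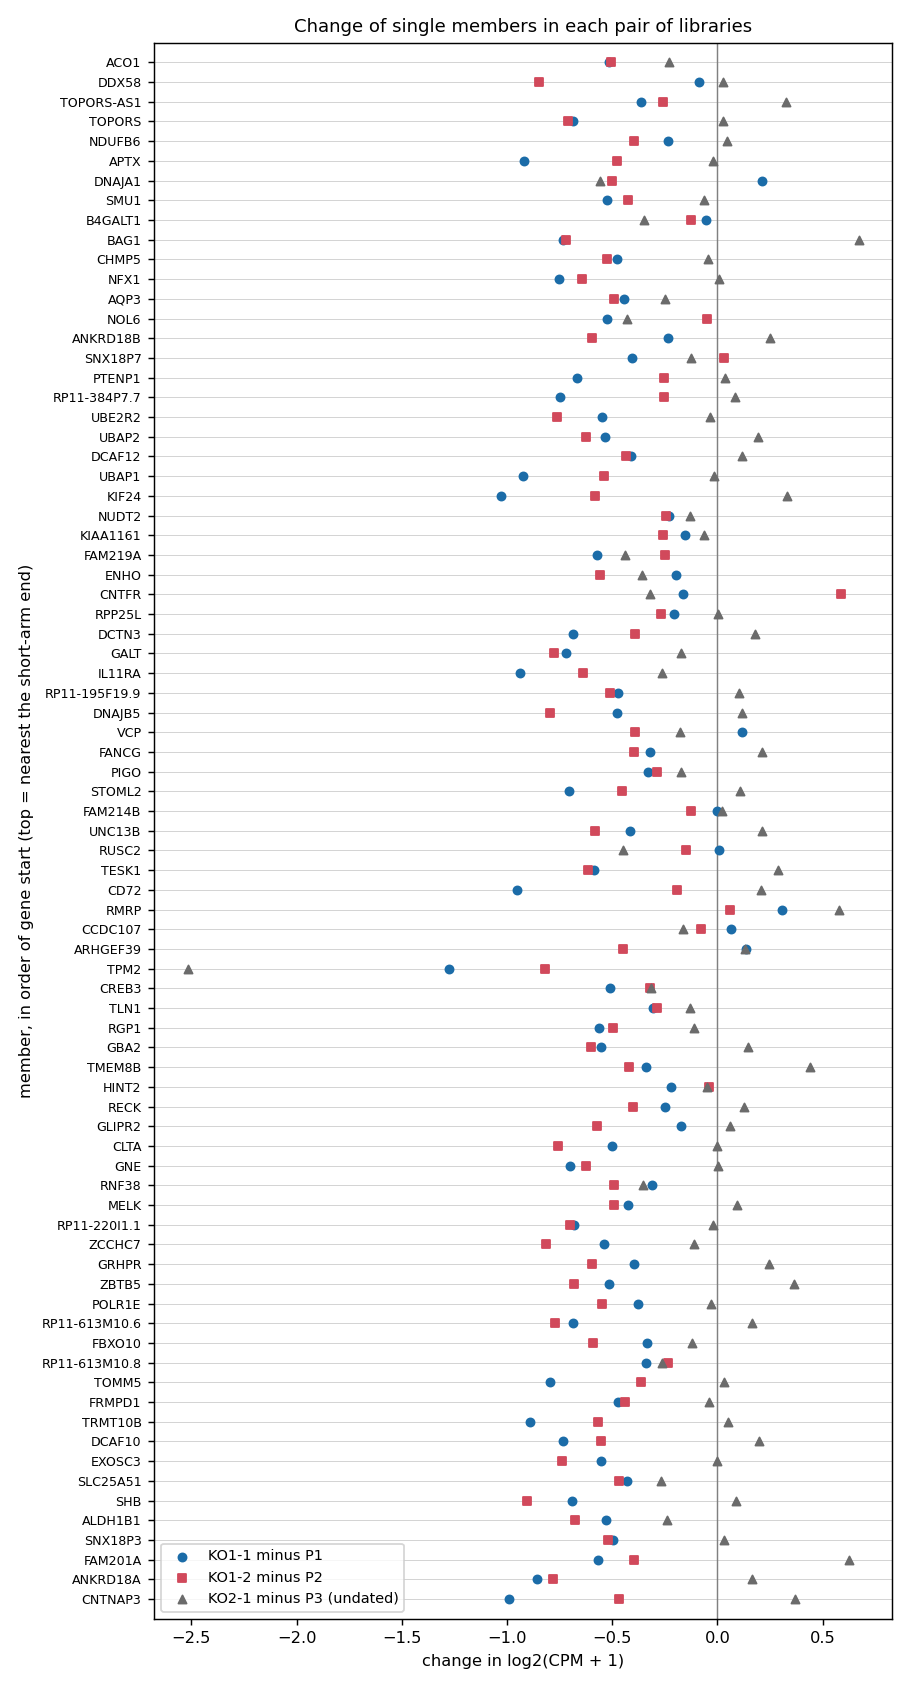
Change of 79 of the 80 members in each pair of libraries, in order of gene start, on the log2(CPM + 1) scale. Circles (KO1-1 minus P1) and squares (KO1-2 minus P2) lie mostly left of 0, with medians over all 80 of −0.49 and −0.50, and triangles (KO2-1, the library labelled KO2, minus P3) lie on both sides with a median of 0.00.

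The lower level was seen in every role list. The members were chosen from this same contrast, so this describes the choice and says nothing of roles. In each of the 7 lists by which the members were grouped, the median was between −0.69 and −0.43 in the first dated pair and between −0.55 and −0.42 in the second. The lists were written with earlier results of these data known, and a gene may stand in more than 1 list.

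Of 13 members that act in ubiquitin transfer, the proteasome or protein folding, 11 were lower in both dated pairs. UBAP1, a subunit of the ESCRT-I complex that sorts ubiquitinated cargo, measured 54.8 and 39.6 CPM in P1 and P2, 28.5 and 26.9 CPM in KO1-1 and KO1-2, and 57.1 and 56.5 CPM in P3 and the library labelled KO2. Both KO1 libraries lay below every other library. Its mean dated change was −0.73 (SE 0.24 without and 0.14 with the date code). UBAP2 measured 58.1 and 74.6 CPM in P1 and P2, 39.8 and 48.0 CPM in KO1-1 and KO1-2, and 72.9 and 83.6 CPM in P3 and the library labelled KO2, again with the KO1 libraries lowest. The other members of the list include UBE2R2, a ubiquitin-conjugating enzyme, CHMP5, an ESCRT-III subunit, and the ubiquitin ligase substrate receptors DCAF10 and DCAF12. The members of this list that were not lower in both pairs were DNAJA1 and VCP.

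Of 11 members in the list of RNA synthesis, processing and decay, 9 were lower in both dated pairs and RMRP was higher in both. The list also holds the pseudogene PTENP1, which was lower in both, and RUSC2, a vesicle traffic adaptor, which was not. Both were placed there without a known role in RNA. SMU1, a spliceosome component, measured 111 and 129 CPM in P1 and P2, 76.9 and 96.1 CPM in KO1-1 and KO1-2, and 157 and 150 CPM in P3 and the library labelled KO2. NFX1, a zinc finger protein that binds RNA and DNA, measured 64.7 and 78.0 CPM in P1 and P2, 38.0 and 49.7 CPM in KO1-1 and KO1-2, and 77.9 and 78.3 CPM in the undated libraries. In both genes the KO1 libraries were the 2 lowest of the 6. POLR1E, a subunit of RNA polymerase I, overlapped between groups: it measured 47.2 and 32.2 CPM in P1 and P2 and 36.1 and 21.7 CPM in KO1-1 and KO1-2, so that KO1-1 was above P2. Its changes within each date were nevertheless −0.38 and −0.55. DDX58, the sensor of viral RNA known as RIG-I, measured 4.92 CPM in P1 and 8.98 CPM in P2 with 4.58 and 4.55 CPM in KO1-1 and KO1-2, so its changes of −0.09 and −0.85 differed with the parental library and not with the KO1 library.

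All 11 members in the list of enzymes of metabolism and glycosylation, which also holds the mitochondrial carrier SLC25A51, were lower in both dated pairs. ACO1, the cytosolic aconitase that doubles as an iron regulatory protein, measured 47.6 and 51.1 CPM in P1 and P2, 33.0 and 35.7 CPM in KO1-1 and KO1-2, and 62.2 and 52.9 CPM in P3 and the library labelled KO2. GNE, which starts sialic acid synthesis, measured 75.0 and 67.7 CPM in P1 and P2, 45.8 and 43.5 CPM in KO1-1 and KO1-2, and 62.5 CPM in each undated library. GALT, an enzyme of galactose breakdown, was at 19.6 and 12.2 CPM in P1 and P2 and 11.5 and 6.71 CPM in KO1-1 and KO1-2. For ACO1, GNE and GALT both KO1 libraries lay below both dated parental libraries. For GRHPR, the glyoxylate reductase, they did not, since KO1-1 (93.2 CPM) was above P2 (85.6 CPM), although it was below P1 (123 CPM). The smallest change of the list was that of B4GALT1, a Golgi galactosyltransferase, at −0.05 and −0.13.

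The 6 mitochondrial members were lower in both dated pairs. STOML2, a scaffold of the inner membrane, measured 202 and 92.5 CPM in P1 and P2, 123 and 67.4 CPM in KO1-1 and KO1-2, and 141 and 152 CPM in P3 and the library labelled KO2. P1 and P2 differed from each other by more than either differed from its KO1 partner, and the changes within each date were −0.70 and −0.45. ALDH1B1, a mitochondrial aldehyde dehydrogenase, measured 66.3 and 74.8 CPM in P1 and P2, 45.6 and 46.4 CPM in KO1-1 and KO1-2, and 140 and 118 CPM in the undated libraries. Here the KO1 libraries were lowest and the 2 undated libraries highest. NDUFB6, a subunit of respiratory complex I, was at 32.0 and 22.5 CPM in P1 and P2 and 27.1 and 16.8 CPM in KO1-1 and KO1-2. HINT2, a mitochondrial nucleotide-binding hydrolase, was at 36.0 and 15.7 CPM and 30.8 and 15.3 CPM in the same order, so that the difference between dates was far larger than that within them. Without 1 library these 2 genes took the other sign, with NDUFB6 at 0.01 without KO1-2 and HINT2 at 0.36 without KO1-2 and 0.44 without P1. The library left alone in its group is then set against both dates. Within each date the changes were −0.23 and −0.40 for NDUFB6 and −0.22 and −0.04 for HINT2.

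Of 14 members in the list of the cytoskeleton, cilia and vesicle traffic, 12 were lower in both dated pairs. The roles of ANKRD18A, ANKRD18B, CCDC107, FAM219A and TMEM8B in this list are uncertain. TLN1, which encodes talin and was among the most abundant members, measured 233 and 210 CPM in P1 and P2, 189 and 172 CPM in KO1-1 and KO1-2, and 229 and 210 CPM in P3 and the library labelled KO2. CLTA, a clathrin light chain, measured 118 and 128 CPM in P1 and P2, 82.9 and 75.4 CPM in KO1-1 and KO1-2, and 111 CPM in each undated library. UNC13B, a vesicle priming factor, was at 74.4 and 74.6 CPM in P1 and P2 and 55.7 and 49.6 CPM in KO1-1 and KO1-2. In TLN1, CLTA and UNC13B the KO1 libraries were the 2 lowest, with changes of −0.31 and −0.29 for TLN1 and −0.50 and −0.76 for CLTA. KIF24, a kinesin of the centriole, measured 34.8 and 23.2 CPM in P1 and P2, 16.6 and 15.2 CPM in KO1-1 and KO1-2, and 15.8 and 20.1 CPM in P3 and the library labelled KO2. P3, which carries no date, was thus as low as the KO1 libraries. Within each date the changes of KIF24 were −1.03 and −0.58.

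TPM2 (chr9:35681989-35691017, minus strand), which encodes the actin-binding protein β-tropomyosin, had the largest mean dated change of all members. It measured 11.0 and 10.5 CPM in P1 and P2, 3.94 and 5.53 CPM in KO1-1 and KO1-2, 42.2 CPM in P3 and 6.54 CPM in the library labelled KO2. Every UBR7KO library lay below every parental library, and P3 stood apart from the other 2 parental libraries. Its mean dated change was −1.05 (SE 0.29 without and 0.20 with the date code), and it was the single member past 1 in size on the log2(CPM + 1) scale. With a pseudocount of 0.1 CNTNAP3 was also past 1, at −1.06 against −1.18 for TPM2. By edgeR without the date code CNTNAP3 (−1.18), RP11-613M10.6 (−1.08) and IL11RA (−1.03) were among others past 1, with TPM2 at −1.21. Its changes were −1.28, −0.82 and −2.52 in the 3 pairs, which made it the member with the largest change in the undated pair too.

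The 5 members of DNA repair and the cell cycle were lower in both dated pairs. TOPORS, a ubiquitin and SUMO ligase, measured 53.8 and 81.3 CPM in P1 and P2, 33.0 and 49.4 CPM in KO1-1 and KO1-2, and 75.2 and 76.6 CPM in P3 and the library labelled KO2. MELK, a kinase that is high in dividing cells, measured 85.3 and 96.5 CPM in P1 and P2, 63.2 and 68.4 CPM in KO1-1 and KO1-2, and 73.0 and 77.9 CPM in the undated libraries. The KO1 libraries were the lowest for both genes. FANCG, of the Fanconi anaemia core complex, was at 51.0 and 30.8 CPM in P1 and P2 and 40.6 and 23.2 CPM in KO1-1 and KO1-2, with KO1-1 above P2. Its changes within each date were −0.32 and −0.40. The mean dated change of −0.36 became 0.03 without KO1-2, where KO1-1 is set against both P1 and P2.

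Of 10 members in the list of membrane receptors, channels and signalling, 9 were lower in both dated pairs. SHB, an adaptor with an SH2 domain, measured 6.86 and 10.2 CPM in P1 and P2, 3.86 and 4.98 CPM in KO1-1 and KO1-2, and 18.3 and 19.5 CPM in the undated libraries. IL11RA, the interleukin-11 receptor, measured 8.75 and 4.11 CPM in P1 and P2, 4.09 and 2.28 CPM in KO1-1 and KO1-2, and 1.85 and 1.38 CPM in the undated libraries. The KO1 libraries were the 2 lowest for SHB, whereas for IL11RA the undated libraries were lower still. CREB3, a transcription factor of the endoplasmic reticulum membrane, had changes of −0.51, −0.32 and −0.32 in the 3 pairs.

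**Figure D3:**
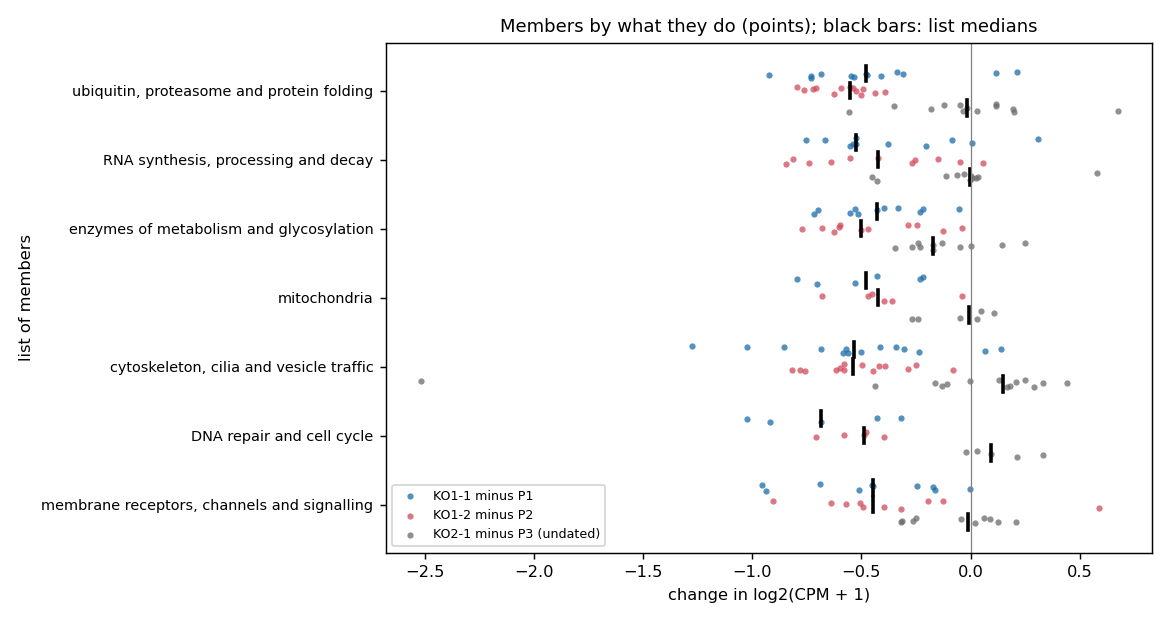
Change of members in the 7 role lists, on the log2(CPM + 1) scale, with 1 point per member and pair and a black bar at each list's median. In the dated pairs (blue and red) the medians lie between −0.69 and −0.42, and in the undated pair (grey, KO2-1 being the library labelled KO2) between −0.17 and 0.15.

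The 15 members in no list included 14 that were lower in both dated pairs. ANKRD18A, which was listed with the cytoskeleton although its role is uncertain, measured 6.09 and 8.94 CPM in P1 and P2 and 2.92 and 4.79 CPM in KO1-1 and KO1-2, with 4.74 and 5.43 CPM in the undated libraries. RP11-613M10.6, an antisense transcript in no list, measured 2.99 and 3.79 CPM in P1 and P2 and 1.48 and 1.80 CPM in KO1-1 and KO1-2, with 3.84 and 4.43 CPM in the undated libraries. Both genes belong to the 8 members with the largest lower mean change. By gene type, 64 of 70 protein-coding genes, 4 of 4 antisense genes, 2 of 3 lincRNAs and 2 of 3 pseudogenes were lower in both dated pairs. ANKRD18A, ANKRD18B, CNTNAP3, PTENP1, SNX18P3 and SNX18P7 have near-identical copies, so their reads may be split uncertainly. A further limit is that 28 members overlap another gene, 22 of them on the opposite strand, and whether counting used strand is not given in the sources used here.

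The genes that departed from the lower level were 8 of the 80 members, and all but RMRP departed in a single dated pair. Higher in the first pair alone were DNAJA1, VCP, RUSC2, CCDC107 and ARHGEF39. Higher in the second pair alone were CNTFR and SNX18P7. VCP, RUSC2, RMRP, CCDC107 and ARHGEF39 start between 35 and 36 Mb, where the 19 members had medians of −0.33 and −0.39 in the dated pairs. The 19 members include the genes just named and also TPM2, the member with the largest lower change. The 14 members from 33 to 34 Mb had −0.53 and −0.49, and the 14 from 37 to 38 Mb had −0.53 and −0.58. In the first pair other steps were close to that of 35 to 36 Mb. The 5 members from 32 to 33 Mb had −0.36 and −0.50, and the 6 from 36 to 37 Mb had −0.37 and −0.53. The 16 from 34 to 35 Mb had −0.48 and −0.51. A further 5 members were lower in both pairs but lay within 0.1 of 0 in at least 1 of them, FAM214B (−0.00 and −0.13), B4GALT1, HINT2, NOL6 and DDX58.

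DNAJA1 (chr9:33025209-33039905, plus strand), a DNAJ co-chaperone of HSP70, measured 107 and 201 CPM in P1 and P2, 124 and 142 CPM in KO1-1 and KO1-2, and 354 and 240 CPM in P3 and the library labelled KO2. P1 was the lowest parental library by a wide margin, so the change was 0.21 in the first pair against −0.50 in the second and −0.56 in the undated pair. Without P2 the mean dated change of −0.14 became 0.31. APTX, a DNA strand break repair protein, starts 43 bp from DNAJA1 on the opposite strand, and the 2 promoter windows share 252 bases, including the motif matches shown above. APTX measured 45.3 and 24.4 CPM in P1 and P2 and 23.5 and 17.2 CPM in KO1-1 and KO1-2, with 32.4 and 31.9 CPM in the undated libraries. Its changes were −0.92, −0.48 and −0.02, so that within the first pair the neighbours differed by 1.13 in their log2 change and within the second by 0.03.

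VCP (chr9:35056061-35073246, minus strand) measured 214 and 215 CPM in P1 and P2, 232 and 164 CPM in KO1-1 and KO1-2, and 374 and 330 CPM in P3 and the library labelled KO2. Here the parental libraries of both dates were level and the KO1 libraries differed from each other, giving changes of 0.11 and −0.39 and 0.11 for the mean dated change without KO1-2. RUSC2 measured 11.1 and 9.89 CPM in P1 and P2, 11.1 and 8.83 CPM in KO1-1 and KO1-2, and 13.4 and 9.53 CPM in the undated libraries. Its dated changes of 0.01 and −0.15 are smaller than the difference between its dates.

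RMRP (chr9:35657748-35658015, minus strand), the RNA component of RNase MRP, was the single member that was higher in both dated pairs. It measured 23.6 and 0.677 CPM in P1 and P2, 29.4 and 0.745 CPM in KO1-1 and KO1-2, and 10.8 and 16.7 CPM in P3 and the library labelled KO2. Both libraries of the second date were far below the other 4, and the changes within each date were 0.31 and 0.06. The mean dated change of 0.18 had an SE of 1.73 without the date code and became −1.88 without KO1-1 and −1.75 without P2. These last values set a lone library against both dates. CCDC107 starts 286 bp from RMRP on the other strand and measured 4.30 and 4.74 CPM in P1 and P2, 4.55 and 4.43 CPM in KO1-1 and KO1-2, and 7.82 and 6.88 CPM in the undated libraries. Its dated changes of 0.06 and −0.08 were both near 0, while the gene that overlaps it on the opposite strand, ARHGEF39, had changes of 0.14 and −0.45.

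CNTFR (chr9:34551430-34590121, minus strand), the receptor of ciliary neurotrophic factor, had the highest mean dated change, 0.21 (SE 0.32 without and 0.22 with the date code). It measured 4.23 and 2.30 CPM in P1 and P2, 3.67 and 3.96 CPM in KO1-1 and KO1-2, and 4.22 and 3.19 CPM in the undated libraries. Its dated changes were −0.16 and 0.59. The parental library of the second date, P2, was the lowest of the 6, and without it the change became −0.12.

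**Figure D4:**
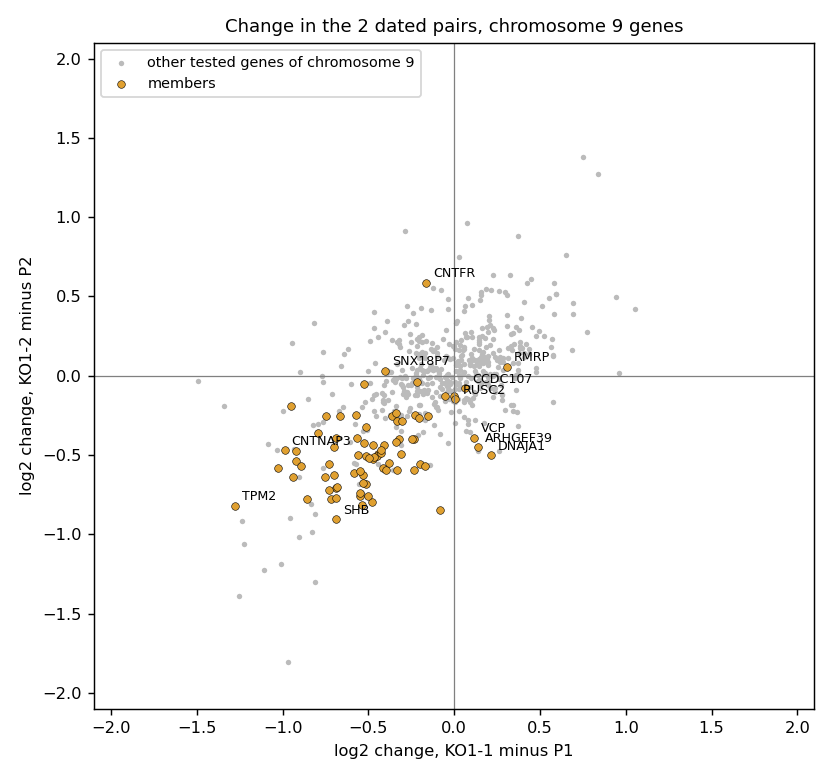
Change in the first dated pair (horizontal) against the second (vertical) for the 80 members (orange) and the other 479 tested genes of chromosome 9 (grey), on the log2(CPM + 1) scale. The members lie mostly in the lower left, 72 of 80 below 0 on both axes, and the 8 that do not are labelled together with TPM2, SHB and CNTNAP3.

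Of 10 pairs of members on opposite strands with starts within 1 kb, 8 had lower values for both genes on both dates, the exceptions being APTX with DNAJA1 and RMRP with CCDC107. BAG1, a nucleotide exchange factor of HSP70, and CHMP5 start 179 bp apart with changes of −0.73 and −0.72 for BAG1 and −0.48 and −0.52 for CHMP5. The 2 dates gave nearly the same value for each of these genes, and the neighbours differed from each other by more than the dates did. TLN1 and CREB3, GBA2 and RGP1, HINT2 and TMEM8B, EXOSC3 and DCAF10, and ANKRD18A and FAM201A overlap at their starts, so their reads there cannot be told apart without strand. APTX, BAG1, TESK1, TMEM8B and ZBTB5, like other genes outside the rule for named genes, are named because of the values they showed.

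Members varied among themselves more at low than at high level. The 40 members with the higher mean level (20.4 to 255 CPM) had medians of −0.53 and −0.52 with SDs of 0.239 and 0.178 over genes, and 38 of them were lower in both dated pairs. The 40 with the lower mean level (0.989 to 17.7 CPM) had medians of −0.42 and −0.44 with SDs of 0.348 and 0.295, and 34 were lower in both. On the CPM scale, which has no pseudocount, the medians were 68.9% and 69.5% of parental for the first set and 68.4% and 64.3% for the second. Across the 80 members the change in the first pair and that in the second had a Pearson r of 0.438 and a Spearman rho of 0.44. Across 409 chromosome 9 genes that start beyond 70 Mb these were 0.447 and 0.382. Each date has its own libraries, but genes share a library and its depth. Level, gene span and position within the window had Pearson values between −0.273 and −0.102 with the mean dated change across the same 80 genes.

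The edges of the window were not the edges of the lower stretch. A search over the chromosome's 559 tested genes for the 1 run that best separates an inside from an outside mean (least squares, mean of both dated pairs) gave a run of 122 genes from RRAGA, at 19.05 Mb, to FAM189A2, at 71.94 Mb, across the centromere. The mean change was −0.49 inside and 0.03 outside. Each dated pair alone gave the same first gene, but the last gene was FAM122A at 71.39 Mb in the first pair and RP11-204M4.2 at 42.02 Mb in the second. In the undated pair the search found 3 genes elsewhere, between 108.32 and 109.63 Mb, the shortest run it allowed. The search always returns 1 run, so it does not show whether other genes moved in that pair.

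**Figure D5:**
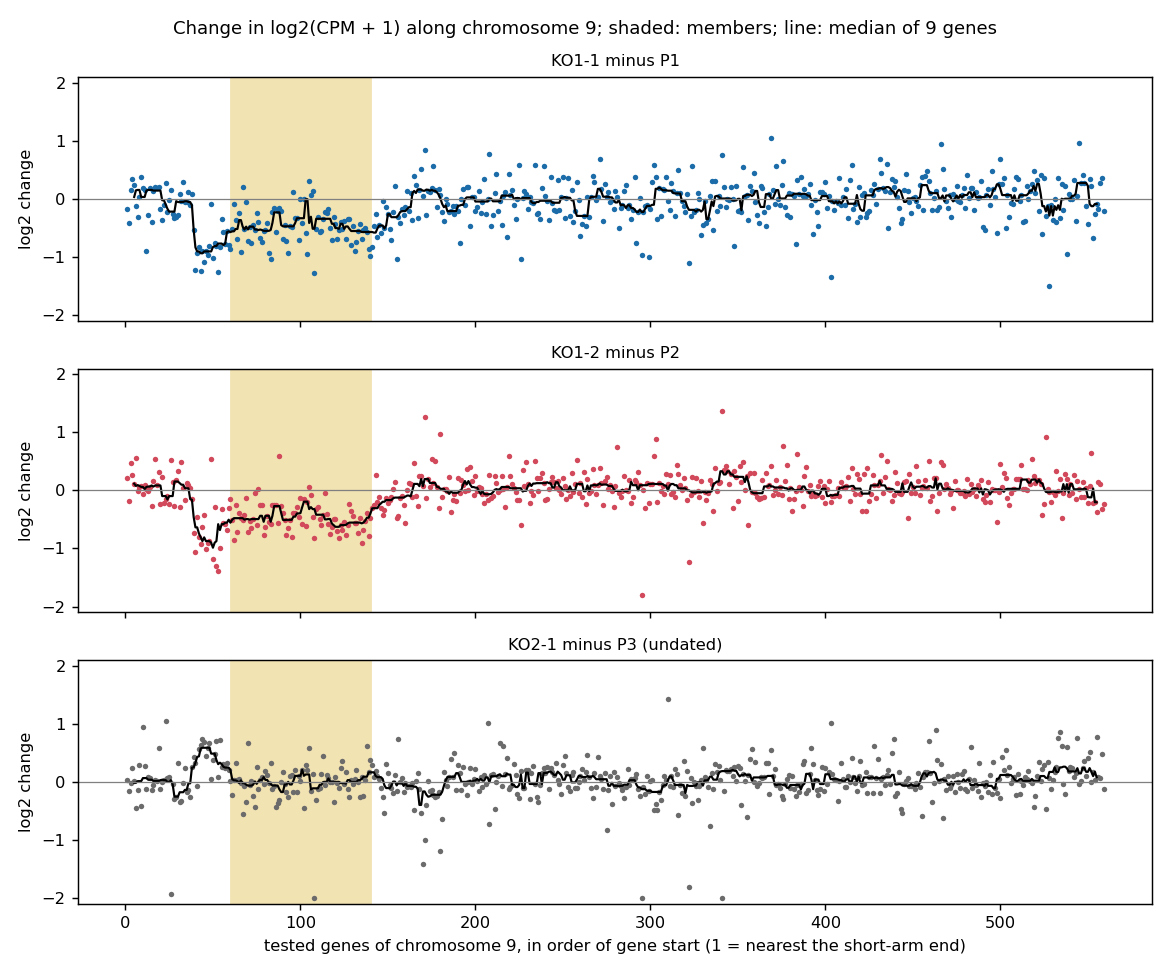
Change of the 559 tested genes of chromosome 9 in order of gene start, on the log2(CPM + 1) scale, for each pair of libraries, with the 80 members shaded and a line at the running median of 9 genes; 3 values beyond −2 are drawn at the edge, and KO2-1 is the library labelled KO2. In both dated pairs the line drops before the shaded genes, stays below 0 across most of them, with a brief rise to near 0 in the first pair around RMRP, and returns to 0 beyond them. In the undated pair it lies near 0 across them and above 0 just before.

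The 3 nearest tested genes on each side of 30 Mb showed no step there. Outside, PLAA, MOB3B and C9orf72 had changes of −0.56, −0.79 and −0.85 in the first pair and of −0.68, −0.31 and −0.15 in the second. Inside, ACO1, DDX58 and TOPORS-AS1 had changes of −0.52, −0.09 and −0.36 in the first pair and of −0.50, −0.85 and −0.26 in the second. At 40 Mb the nearest members, ANKRD18A, FAM201A and CNTNAP3, had changes of −0.86, −0.57 and −0.99 in the first pair and of −0.78, −0.40 and −0.47 in the second. The genes beyond, ZNF658, RP11-204M4.2 and FAM95B1, had changes of −0.82, −0.46 and −0.26 and of −0.31, −0.25 and 0.26. Their levels were at most 4.19 CPM, so the far edge rests on weakly expressed genes.

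Within the run, the members were not the lowest stretch. The 16 tested genes from 19 to 25 Mb, a bound set after the values were seen, had medians of −0.90 and −0.89 in the dated pairs, or 51.9% and 53.5% of parental, against 68.7% and 68.5% for the members. RPS6, a ribosomal protein of this stretch, measured 3378 and 1974 CPM in P1 and P2, 1431 and 1045 CPM in KO1-1 and KO1-2, and 1378 and 2142 CPM in P3 and the library labelled KO2. In the undated pair the same 16 genes had a median of 0.53, or 151% of parental, while the members had 0.00. The 6 genes from 25 to 30 Mb had medians of −0.67, −0.44 and 0.25 in the 3 pairs. The 38 genes before 19 Mb had medians of −0.03, 0.07 and −0.01, and SH3GL2, the last of them, had changes of 0.08 and −0.15. Beyond the members, the 5 genes from 40 to 50 Mb had medians of −0.46 and −0.20 in the dated pairs, the 15 genes from 60 to 72 Mb −0.28 and −0.22, and the 399 genes further on 0.02 and 0.04.

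Open chromatin was a readout the choice of members did not use, but ATAC-seq was not made from a library labelled KO1. The UBR7KO ATAC descriptions carry the code of KO2-1, so the use of that line was inferred and is not stated. The window held 54 of 10507 and 140 of 38529 peaks in the parental libraries, or 0.514% (95% exact binomial interval 0.386% to 0.670%) and 0.363% (0.306% to 0.429%). In the UBR7KO libraries it held 70 of 15310 and 145 of 45920 peaks, or 0.457% (0.357% to 0.577%) and 0.316% (0.267% to 0.371%). The shares overlapped between genotypes, at 0.386% ± 0.100 in UBR7KO and 0.439% ± 0.106 in parental libraries (SD, n = 2 each; exact two-sided permutation test, p = 0.667, where 2 against 2 cannot go below 0.333). In both genotypes the library with fewer peaks had the higher share, and the part of depth in this was not tested. With peaks of −log10 q of at least 5 alone, the difference turned from −0.0522 to 0.0554 percentage points (exact permutation test, p = 1.00). The intervals cover counting error only, as in any share of peaks given here.

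From 19 to 30 Mb the share of peaks was 0.209% and 0.215% in the parental and 0.255% and 0.314% in the UBR7KO libraries, so the genotypes did not overlap there (exact permutation test, p = 0.333, the smallest possible). With peaks of −log10 q of at least 5 alone they did overlap, at 0 of 281 and 4 of 2719 peaks in parental and 0 of 295 and 19 of 7331 in UBR7KO libraries (0.147% and 0.259% in the libraries with more peaks; exact permutation test, p = 1.00). The upper limits of the exact binomial intervals of the 2 shares at 0 were 1.30% and 1.24%. From 25 to 30 Mb the shares of all peaks also overlapped, at 0.0571% and 0.0701% in parental and 0.0523% and 0.0740% in UBR7KO libraries. The 22 tested genes from 19 to 30 Mb had a median RNA change of 0.40 in the undated pair, where P3 was below both P1 and P2 in part of these genes. At the members' starts, a peak within 1 kb was found for 47 (58.8%) and 69 (86.2%) members in the parental libraries, against 55.5% and 80.8% of tested genes, and for 63 (78.8%) and 71 (88.8%) in the UBR7KO libraries, against 70.5% and 83.3%. A peak was found in all 4 ATAC libraries for 44 members (55.0%), against 52.9% of tested genes. No library had such a peak for 9 members, SNX18P7, RP11-384P7.7, CNTFR, IL11RA, ARHGEF39, GNE, RP11-613M10.6, FBXO10 and SNX18P3.

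GFP-UBR7 peaks came from 1 ChIP library and allow no test. A peak within 1 kb of the start was found for 16 members (20.0%), against 24.9% of tested genes, and the window held 21 of 5895 peaks (0.356%). The median mean dated change was −0.47 for these 16 and −0.49 for the other 64 members. The strongest, by the authors' score, was shared by the starts of DCAF10 and EXOSC3, a subunit of the RNA exosome, with a score of 300 at percentile 99.2 of all peaks in the list. DCAF10 measured 60.3 and 33.2 CPM in P1 and P2, 35.9 and 22.3 CPM in KO1-1 and KO1-2, and 28.6 and 32.9 CPM in P3 and the library labelled KO2. EXOSC3 measured 25.5 and 28.0 CPM in P1 and P2, 17.0 and 16.4 CPM in KO1-1 and KO1-2, and 39.9 and 39.8 CPM in the undated libraries. DCAF10 in P3 was below KO1-1, whereas EXOSC3 was lowest in the KO1 libraries.

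In the authors' deposited table, which compares UBR7KO with parental by a design that is not stated, 79 of 80 members had a negative log2 fold change, with a median of −0.36 against −0.01 for all genes of the authors' deposited table. The lowest adjusted p of a member in the authors' deposited table was 0.313, for TPM2, at a log2 fold change of −2.04. The authors' deposited table had 0 members among its 6 genes with an adjusted p under 0.05 (0.0423% of genes). Its libraries include the KO1 and dated parental libraries whose difference chose the members. These values are therefore a description and no separate test of the lower level.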

How the data were processed

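The samples were 18 in all, of which the 6 RNA-seq, 4 ATAC-seq and the 1 GFP ChIP-seq peak list were used and the 6 CUT&RUN samples were not analysed here. The members, the role lists and the stretches of chromosome 9 were chosen with earlier results of these data known. The RNA table deposited by the authors gives CPM per library, that is reads of a gene scaled to the library total, with HTSeq and edgeR in its name per the labels. It also holds the authors' log2 fold change and p-value columns, whose design is not given in the sources used here. The ATAC lists deposited by the authors give broad peaks called in each library alone, with −log10 q. Scores in the deposited list of GFP-UBR7 peaks carry no unit and served to order the peaks. The authors' cluster labels for gene starts come without a signal and were not used here, so the planned count of them at members was not made. Bowtie2 2.3.1, TopHat2 2.1.0, edgeR, HTSeq 0.6.1, MACS2, Trimmomatic 0.36, SAMtools 1.3.1 and other tools are named by the submitters' processing notes, without a role for each. The aligner of each file, its build and the use of strand are not given in the sources used here.

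All values of the table were whole multiples of 1 read within 0.001 reads, so whole reads were recovered from the CPM. Library totals were 27418953, 22153291 and 29141652 reads for P1, P2 and P3 and 26395544, 25487348 and 29811908 for KO1-1, KO1-2 and KO2-1. The members held 51877 to 102495 reads per library. The lowest member had 4 reads in a library, and 8 members had under 30 in at least 1 library. A change is log2(CPM + 1) of the UBR7KO library minus that of its parental library. The 2 KO1 libraries were compared with P1 and P2 over 13697 genes by limma 3.58.1 (intensity trend, robust empirical Bayes, Benjamini-Hochberg adjustment, threshold 0.05) in R 4.3.3. Deviations of P1, P2 and of KO1-1, KO1-2 from their group means, in groups of 2, correlated by 0.808 across genes between libraries of the same date code, and the codes in the sample descriptions pair them. The fit with the date code as a block is therefore printed beside the result. Alternatives were a pseudocount of 0.1, TMM scaling, no filter, edgeR 4.0.16 quasi-likelihood and DESeq2 1.42.0 on the recovered reads, each library left out and all 6 libraries in 3 groups. Scripts in Python 3.11.15 with numpy 2.4.6, pandas 2.3.3 and scipy 1.17.1 did the rest, and figures used matplotlib 3.10.9. The single values of 1 member are not reported here, though it stays in all counts and medians. The fits and the search for edges were tested on simulated data.

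The genes to be named were UBR7, the 8 members with the highest and the 8 with the lowest mean dated change, members on the other side of 0 in both dated pairs, the 3 tested genes on each side of 30 and 40 Mb, the 8 members with the highest mean CPM and up to 3 of each role list by level. A peak was assigned to a gene when it lay within 1 kb of its start. Binomial intervals (exact Clopper-Pearson, 95%) cover counting error only.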

Additional observations from a re-analysis of the deposited data

Results flagged for a closer look

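Some genes were lower in both dated pairs and higher in the undated pair, by at least 0.25 on the log2(CPM + 1) scale in each pair. The minimum of 0.25 and the choice to look at all members were made after the values were seen. The undated pair has 1 library a side and rests on the library labelled KO2, in which UBR7 was not lower, so these differences were not tested. The 22 genes from 19 to 30 Mb, just before the members, had a median of 0.40 in the undated pair and of −0.83 and −0.71 in the dated pairs. In some of these genes P3 was low beside P1 and P2. HAUS6 was at 183, 180 and 128 CPM in P1, P2 and P3 and at 161 CPM in the library labelled KO2. In others the library labelled KO2 was above every parental library, as in PLAA, at 61.1 CPM against 47.7, 51.4 and 48.4 CPM. Among the members, BAG1 was 0.67 higher in the undated pair, at 22.8 CPM in P3 and 37.0 CPM in the library labelled KO2, and was −0.73 and −0.72 in the dated pairs, from 22.9 and 22.2 CPM in P1 and P2 to 13.4 and 13.1 CPM in KO1-1 and KO1-2. The 3 parental libraries were level, and the library labelled KO2 and the KO1 libraries lay on opposite sides of them.

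FAM201A was 0.63 higher in the undated pair, from 0.755 to 1.71 CPM, near the filter on low values. TMEM8B was 0.44 higher there (2.78 to 4.13 CPM), CNTNAP3 0.37 higher (1.30 to 1.98 CPM) and ZBTB5, a zinc finger protein, 0.36 higher (21.0 to 27.3 CPM). KIF24 was 0.33 higher (15.8 to 20.1 CPM), TOPORS-AS1 0.32 higher (1.89 to 2.62 CPM) and TESK1, a kinase of the actin cytoskeleton, 0.29 higher (12.6 to 15.7 CPM). In all 8 of these members both dated changes were −0.25 or lower. In BAG1, TOPORS-AS1 and TESK1 the library labelled KO2 was above every parental library. In FAM201A, TMEM8B, CNTNAP3, ZBTB5 and KIF24 P3 was the lowest parental library and the library labelled KO2 stayed below P1. FAM201A, CNTNAP3, TOPORS-AS1 and TMEM8B were below 5 CPM in P3, so few reads lie behind their values.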

How the results depend on the processing

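The members' median over both dated pairs was −0.48. It was −0.55 with a pseudocount of 0.1, −0.51 with TMM scaling, −0.50 for the 54 members above 5 CPM in all libraries and −0.47 for the 53 without near-identical copies or opposite-strand overlaps. With each library left out, which unbalances the dates, it ranged from −0.61 to −0.38. In the undated pair (0.00) it was 0.02 with TMM scaling, −0.01 above 5 CPM, −0.01 for the 70 protein-coding members and −0.03 without copies and overlaps. The exclusion of copies and overlaps, the medians with a library left out and the further settings combined with the block were chosen after seeing the data.

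The replicate block by date code moved the calls from 0 to 305 higher and 186 lower genes, with 33 members lower. Block and other settings together gave 296 higher, 186 lower and 33 members (pseudocount 0.1), 241, 234 and 39 (TMM), 249, 262 and 39 (edgeR quasi-likelihood), and 72, 99 and 16 (DESeq2). Without the block, DESeq2 gave 4 higher and 20 lower genes, and fits with a library left out gave 0 to 8 higher and 1 to 18 lower genes, with 0 members in each. There the lone library of a group is assumed to vary like the other group. Leaving out P1 gave 8 higher and 11 lower, and P2 gave 2 and 18. The last gene of the lower run moved to 42.02 Mb in the second dated pair. The difference in ATAC peak share turned to 0.0554 percentage points with peaks of −log10 q of at least 5.

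Of 675 recomputed values of 45 named genes, 25 took the other sign, in 12 genes. The values with P1, P2, KO1-1 and KO1-2 left out in turn ranged as follows: NDUFB6 −0.64 to 0.01, DNAJA1 −0.60 to 0.31, B4GALT1 −0.21 to 0.03, CNTFR −0.12 to 0.54, VCP −0.39 to 0.11, FANCG −0.75 to 0.03, RUSC2 −0.22 to 0.08, RMRP −1.88 to 2.24, CCDC107 −0.06 to 0.05, HINT2 −0.70 to 0.44 and FAM95B1 −0.21 to 0.21. The other sign came without KO1-2 for NDUFB6, VCP and FANCG, without P2 for DNAJA1, B4GALT1 and CNTFR, without P1 or KO1-2 for RUSC2 and HINT2, without P2 or KO1-1 for RMRP, and without P2 or KO1-2 for CCDC107 and FAM95B1. With all 6 libraries FAM214B (0.01), RMRP (−0.11) and HINT2 (0.09) took the other sign. FAM95B1, at 0.00, was −0.01 with TMM, −0.04 with edgeR quasi-likelihood, −0.04 with DESeq2, and with the block −0.01, −0.05 and −0.03 for the same 3. With a library left out, a lone library is set against both dates. The difference between dates thus enters such values. Other causes were not tested. Depth limits the weakest members: 8 had under 30 reads in a library.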
